A study of Mus musculus with 17 samples.

Results

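Crp, Apcs, Saa1, Saa2 and Orm1 encode plasma proteins that the liver secretes in the acute phase of inflammation: the pentraxins C-reactive protein and serum amyloid P component, a pair of serum amyloid A proteins, and orosomucoid 1. The members were taken by the probe name on the Steroltalk v2 cDNA microarray, a choice made with earlier results of these data known, and make up 5 of its 284 mouse gene probes, with 3 spots per probe on every array. Liver RNA of 10 Lean males was set against that of 10 Fat males, aged 14 weeks and killed after a 4-h fast on maintenance chow. The Lean and Fat lines are inbred and descend from a single base population with CBA, JU and CFLP background, bred apart for over 60 generations on low and on high body fat percentage. No mouse was given an inflammatory stimulus. Each line is a single selected population, so a difference between lines can come from any locus at which they diverged, and cage mates were usually brothers, with no record here of which mice shared a litter. Each array carried 1 Lean and 1 Fat mouse in Cy3 and Cy5, the 17 arrays covered 10 such pairs, and 7 pairs were hybridised in both dye orientations. Pairs 4 and 5 were seen only with Lean in Cy5 and pair 7 only with Lean in Cy3. All ratios are log2 of Lean over Fat, so a value above 0 means more transcript in the Lean mouse.

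The acute phase response is a switch in hepatocyte gene expression driven mainly by interleukin 6, acting through STAT3, and interleukin 1, acting through NF-kB, with C/EBP factors and glucocorticoids joining at many target genes. Serum amyloid P component is the main acute phase pentraxin of the mouse, whereas C-reactive protein, the classical marker in humans, responds weakly in mice. Saa1 and Saa2 encode the inducible serum amyloid A apolipoproteins, which travel on high density lipoprotein, and Orm1 encodes alpha-1-acid glycoprotein, a carrier of basic drugs and a target of glucocorticoids.

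The array itself set limits on these values. Per array, 34.9% to 78.8% of 855 mouse gene spots exceeded the local background by more than 2 of its standard deviations in both channels, with a median of 58.5%. Crp, Apcs and Orm1 were above background on 17 of 17 arrays in Lean and in Fat. Saa1 and Saa2 were above it on 16 of 17 arrays in Lean and on 17 of 17 in Fat. The exception was the pair 10 array with Lean in Cy3, which stood apart from the rest. Its spike-in control Lratio1, which was added in unequal amounts to either RNA, was at -0.06, against -1.29 to -0.61 on the other 16 arrays, and Lratio2 was at 0.09, against 0.72 to 1.29. Without this array the mean ratios given below became 0.24 for Crp, 0.55 for Apcs, 0.13 for Saa1, 0.17 for Saa2 and -0.21 for Orm1, and Crp was still the only called member (adjusted p = 0.0167, limma). All 7 hepatocyte markers were above background on every array, while the 2 probes of the macrophage marker Msr1 were so on 2 and 2 of 17 arrays in Lean and on 2 and 1 in Fat. Of the other probes counted as macrophage markers, NOS-2, the inducible nitric oxide synthase, was above background on 17 of 17 arrays in Lean and in Fat, and Saa3 on 12 in Lean and 13 in Fat. The pooled hepatocyte marker signal ran from 7.58 to 9.01 in Lean and from 7.59 to 8.94 in Fat (log2 of the sum over the array median), and the macrophage sum from 2.05 to 3.22 in Lean and from 2.16 to 3.08 in Fat. The macrophage sum pools the dim Msr1 with NOS-2 and with Saa3, whose pair ratios correlated with those of Saa1 (r = 0.96). It is therefore not taken as a measure of macrophage content. Whole liver was used, so fewer cells of a type and less RNA per cell cannot be told apart.

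Promoter sequences are shown for the 4 of the 5 members that had a promoter entry by RefSeq on GRCm38.p6. Orm1 had no such entry and is named only. The 250 bases before the start of each gene lie at chr7:46742981-46743230 for Saa1, on the minus strand, and at chr7:46751583-46751832 for Saa2, on the plus strand, where both belong to the cluster of serum amyloid A genes on chromosome 7. The stretches for Apcs, at chr1:172895055-172895304 on the minus strand, and Crp, at chr1:172697806-172698055 on the plus strand, lie on chromosome 1. Capitals mark matches to a C/EBP motif (TTNNGNAA) in Saa1, Saa2 and Crp and to a STAT3 motif (TTCNNNGAA) in Apcs, searched on both strands.
Saa1: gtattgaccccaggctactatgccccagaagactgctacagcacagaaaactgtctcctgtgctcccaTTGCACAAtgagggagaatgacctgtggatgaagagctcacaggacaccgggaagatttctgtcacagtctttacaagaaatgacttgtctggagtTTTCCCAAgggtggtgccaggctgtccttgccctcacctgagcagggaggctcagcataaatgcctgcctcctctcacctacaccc
Saa2: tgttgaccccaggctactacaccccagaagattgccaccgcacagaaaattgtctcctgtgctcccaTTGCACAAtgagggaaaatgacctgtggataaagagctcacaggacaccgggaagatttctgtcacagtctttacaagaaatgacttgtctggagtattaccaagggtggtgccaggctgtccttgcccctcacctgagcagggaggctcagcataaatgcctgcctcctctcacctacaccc
Apcs: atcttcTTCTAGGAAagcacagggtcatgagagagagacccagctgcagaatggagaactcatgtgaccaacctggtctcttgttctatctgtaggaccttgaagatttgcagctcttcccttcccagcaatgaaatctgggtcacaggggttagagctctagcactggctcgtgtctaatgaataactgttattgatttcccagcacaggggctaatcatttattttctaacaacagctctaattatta
Crp: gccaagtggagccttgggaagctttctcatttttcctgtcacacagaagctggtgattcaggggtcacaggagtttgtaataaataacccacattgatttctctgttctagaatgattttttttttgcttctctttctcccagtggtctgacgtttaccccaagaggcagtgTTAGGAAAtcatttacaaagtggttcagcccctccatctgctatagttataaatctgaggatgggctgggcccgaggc
The Saa1 and Saa2 stretches were identical at 238 of 251 aligned columns (94.8%). They share the match that begins 182 bases before the start in Saa1, at -182, and 183 bases before it in Saa2, at -183, and Saa1 has a second match at -86 that the search did not find in Saa2. In a window of 300 bases, 50 of them after the start, 40.7% of 32851 mouse promoters held a C/EBP match and 8.3% a STAT3 match. A fixed NF-kB string was found in 1.63% of promoters and a fixed HNF1 string in 0.00913%, and neither exact string occurred in the windows of these 4 genes. Near matches to these strings were not searched for, so this does not show that the 4 genes lack NF-kB or HNF1 sites. Whether the stretch around the Saa1 match at -86 also holds a near match to the NF-kB string was not tested. RefSeq lists Saa2 among the synonyms of Saa1 and Saa1 among those of Saa2, so the array names, which are kept here, may not follow the current ones.

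Crp was the member with the smallest spread. The Lean over Fat ratio of pairs 1 to 10 was 0.14, 0.23, 0.0073, 0.20, 0.25, 0.37, 0.31, 0.53, 0.11 and 0.16. Every pair lay above 0, with pair 3 near it and pair 8 the highest. The mean was 0.23 with an SD of 0.15 between pairs (n = 10), equal to 1.17-fold higher Crp in Lean, with a 95% interval of 1.08 to 1.27 by limma. Its adjusted p was 0.0307 (limma, Benjamini-Hochberg over 284 probes) and the exact two-sided sign-flip permutation test over pairs gave p = 0.00195, the smallest that 10 pairs allow. A ratio above 0 in all 10 pairs was found for 2.11% of probes. Crp was the only 1 of the 5 members past the adjusted threshold, where 3.52% of all probes were called and 2.82% were called higher in Lean. The call ended without pair 2, 5, 6, 7 or 8 in turn (adjusted p of 0.0683 to 0.0879 by limma), although the ratio stayed between 0.20 and 0.26. It also ended when the authors' value table was used (ratio 0.22, adjusted p = 0.0891 by limma), and it held in 18 of 30 alternatives. Pairs of slide series A, 1 of 2 series of slide numbers with 5 pairs each, averaged 0.28 and those of series B 0.18 (exact permutation p = 0.294 between series).

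**Figure D1:**
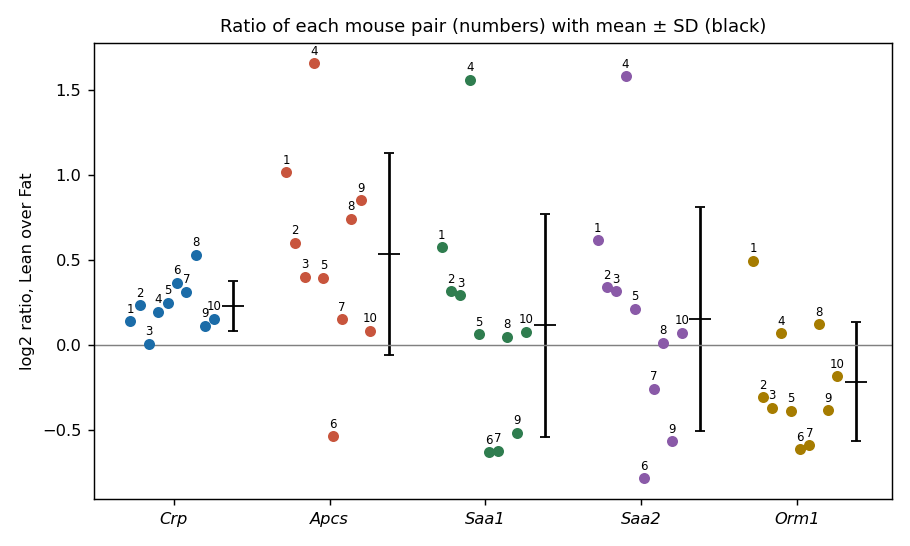
Log2 ratio of Lean over Fat for each of the 5 genes, 1 point per mouse pair (numbered 1 to 10), with the mean ± SD over pairs in black. Crp lies above 0 in all 10 pairs within a narrow band, while Apcs, Saa1 and Saa2 reach 1.56 to 1.66 in pair 4 and fall below 0 in pair 6.

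Crp ratios were higher with Lean in Cy3 than with Lean in Cy5 in 5 of 7 swapped pairs, a difference that did not pass the test. In the 7 swapped pairs the arrays with Lean in Cy3 gave a mean ratio of 0.33, with 7 of 7 above 0, and the arrays with Lean in Cy5 gave 0.11, with 4 of 7 above 0. The Cy5 arrays of pairs 1, 3 and 9 were below 0, at -0.11, -0.12 and -0.07. The difference between both arrays of a pair averaged 0.23 with an SD of 0.26, and the exact two-sided sign-flip permutation test over 7 pairs gave p = 0.0781, or 0.208 after Benjamini-Hochberg adjustment over the 5 members, where the smallest possible p is 0.0156. The median of this difference over all 284 probes was -0.20. The test set the difference against 0 and not against this median, so it does not say how far Crp lay from the other probes. Apcs, Saa2 and Orm1 also had higher values with Lean in Cy3, by 0.27, 0.22 and 0.21 on average, and Saa1 by 0.10, with unadjusted p of 0.109 to 0.547 by the same exact test. The plot of ratios by dye orientation shows these arrays one by one.

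**Figure D2:**
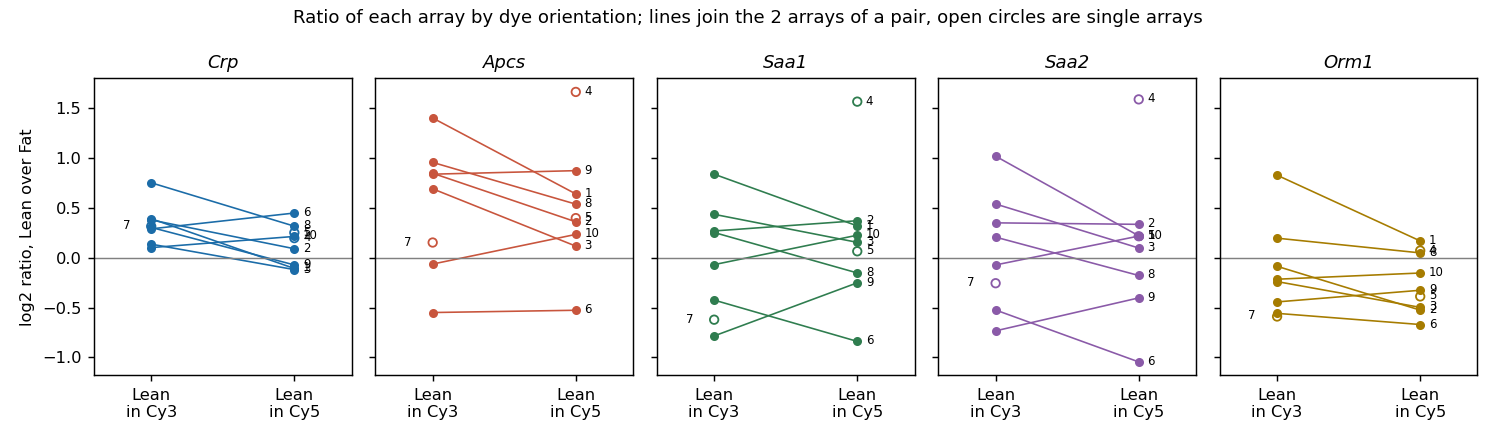
Log2 ratio of Lean over Fat on each of the 17 arrays, with Lean in Cy3 at the left and Lean in Cy5 at the right of each panel. Lines join the arrays of a swapped pair (7 pairs) and open circles are pairs with 1 array. Apcs and Orm1 keep the order of their pairs in both orientations better than Crp does.

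The pair ratios of the other members correlated more closely between orientations than those of Crp. Over the 7 swapped pairs, the ratio with Lean in Cy3 correlated with the ratio with Lean in Cy5 at r = 0.83 for Apcs, 0.82 for Orm1, 0.71 for Saa2, 0.67 for Saa1 and 0.29 for Crp. The median over all probes was -0.14, and these 5 values ranked 7, 9, 16, 23 and 70 of 284. Both arrays of a pair carry the same RNA extracts, so this describes the measurement and not a replicate of the mice.

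Apcs had the highest mean of the members and a wide spread. Its ratio in pairs 1 to 10 was 1.02, 0.60, 0.40, 1.66, 0.40, -0.54, 0.15, 0.74, 0.85 and 0.08. The Lean mouse was the higher in 9 pairs, pair 4 stood highest and pair 6 was the only one below 0. The mean was 0.54 ± 0.59 (SD, n = 10), or 1.45-fold with a 95% interval of 1.14 to 1.84 by limma. It did not pass the adjusted threshold (adjusted p = 0.109, unadjusted p = 0.00497, limma), and the exact two-sided sign-flip permutation p over pairs was 0.0176. Unadjusted p below the threshold was reached by 3 of the 5 members, against 15.1% of all probes. Without pair 6 the ratio was 0.66 with an adjusted p of 0.0221 (limma). Pairs of slide series A averaged 0.31 for Apcs and those of series B 0.77, and all 5 pairs of series B lay above 0. An exact permutation test of the difference between series gave p = 0.246.

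For Saa1 and Saa2 the mean difference between the lines was smaller than the spread between pairs. Saa1 ratios in pairs 1 to 10 were 0.58, 0.32, 0.29, 1.56, 0.063, -0.63, -0.62, 0.049, -0.52 and 0.077. Saa2 ratios were 0.62, 0.34, 0.32, 1.58, 0.21, -0.78, -0.26, 0.013, -0.57 and 0.071. In both genes 7 pairs lay above 0 and pairs 6, 7 and 9 below it, and pair 4 was the highest. The Saa1 mean was 0.12 ± 0.66 (SD, n = 10), or 1.08-fold with a 95% interval of 0.834 to 1.41, and its adjusted p was 0.764 (limma). Saa2 averaged 0.15 ± 0.66 (SD, n = 10), or 1.11-fold with an interval of 0.855 to 1.45, and its adjusted p was 0.725 (limma). Exact two-sided sign-flip p over pairs was 0.627 for Saa1 and 0.514 for Saa2 by permutation.

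Leaving out pair 4 turned the sign of both means, for Saa1 only with the pair 7 value as averaged over its spots. Without it the Saa1 mean was -0.04 and the Saa2 mean -0.0041, both small against the spread between pairs. This Saa1 mean included the pair 7 value of -0.62, whose spots disagreed, as described below. With the median of its spots the pair 7 value was -0.19. With that value in place of -0.62, the Saa1 mean without pair 4 did not turn sign. Pair 4 has a single array, with Lean in Cy5, and its Lean mouse was high before normalization. Among the 9 arrays with Lean in Cy5, the background-subtracted Saa1 signal of this Lean mouse was 4104, the highest, against 1592 for the next Lean mouse and a lowest value of 358.7, and its Fat partner, at 204.6, was the fifth of 9. Its Saa2 signal of 3936 was likewise the highest, against 2275 for the next. Apcs, at 5408, ranked 2 of 9 in the Lean channel and Crp, at 4525, ranked 6 of 9. These signals are not scaled for array brightness. The median Lean gene signal on these 9 arrays ran from 48.7 in pair 3 to 841 in pair 6, with 204 in pair 4. As log2 over the array median, this Lean mouse was at 3.21 for Saa1, 3.13 for Saa2 and 3.60 for Apcs, each the highest Lean level. For Crp it was at 3.33, where Lean mice ran from 1.71 to 3.74. Pairs of slide series A averaged -0.19 for Saa1 and -0.21 for Saa2, and pairs of series B 0.43 and 0.52, with exact permutation p of 0.119 and 0.0794 between series.

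The Saa1 value of pair 7 rested on 1 of its 3 spots. The spots gave ratios of -0.05, -1.62 and -0.19, and at the second the mean local background of the Lean channel was 1366, above its foreground of 281, while the median background was 68. With the median of the 3 spots the pair 7 ratio was -0.19, and with the median background -0.16. The spread of the 3 spots had a median SD of 0.08 over arrays for Saa1 and was 0.87 on this array. A spot SD above 0.2 occurred on 3 arrays of Saa1, the other two being pair 5 (0.24) and pair 6 with Lean in Cy5 (0.22), on 1 array of Orm1 and on none of Crp, Apcs or Saa2.

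Orm1 had the only mean below 0 among the members. Its ratio in pairs 1 to 10 was 0.50, -0.31, -0.37, 0.07, -0.39, -0.61, -0.59, 0.12, -0.39 and -0.19. Pairs 1, 4 and 8 were above 0 and the other 7 below. The mean was -0.22 ± 0.35 (SD, n = 10), or 0.861-fold with a 95% interval of 0.744 to 0.998, with an adjusted p of 0.320 and an unadjusted p of 0.0473 (limma). The exact two-sided sign-flip permutation p was 0.0879. Leaving out each pair in turn gave -0.29 to -0.17, with the value nearest 0 without pair 6. The mean was -0.08 with median centring over gene spots and -0.36 with the ratio controls added to the spike-in fit, a setting chosen after seeing the data. In 1 of its 51 spots in the Fat channel the scanner reading was saturated, and in the Lean channel none of the 51 was, nor was any spot of the other 4 members. Pairs of slide series A averaged -0.29 and those of series B -0.14 (exact permutation p = 0.532 between series). Orm1 lies beside its close relatives Orm2 and Orm3 on chromosome 4, and whether the probe tells them apart was not tested.

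The members differed in how far the pairs disagreed. The median SD between pairs over all 284 probes was 0.21, with quartiles of 0.16 and 0.30. The SD ranked 8 for Saa2, 9 for Saa1, 12 for Apcs and 47 for Orm1, counted from the largest, but 239 for Crp. The plot of mean ratio against spread sets the members among all probes, and no member with an SD above 0.5 was called.

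**Figure D3:**
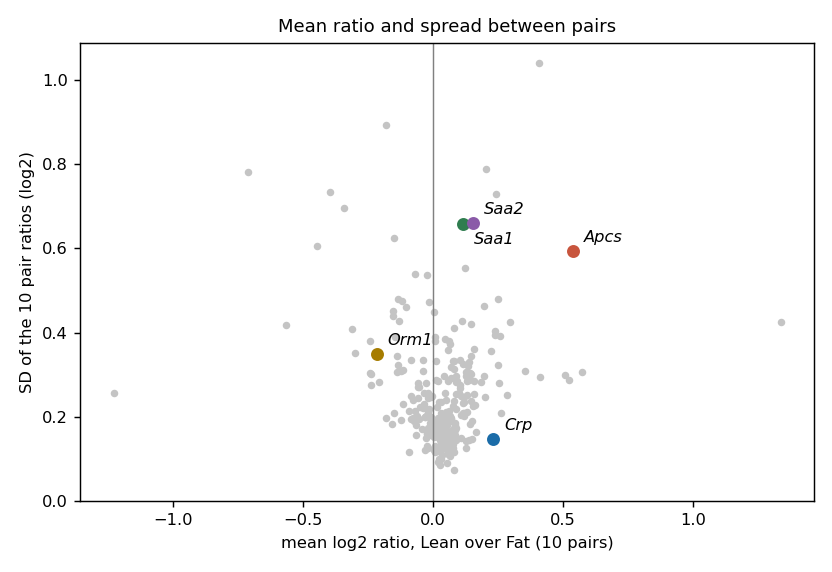
Mean log2 ratio of Lean over Fat over 10 pairs (horizontal) against the SD of the pair ratios (vertical) for all 284 mouse gene probes in grey, with the 5 members coloured. Saa1, Saa2 and Apcs have SDs of 0.59 to 0.66 and Crp has 0.15.

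The pair ratios of Saa1, Saa2 and Apcs correlated past the threshold, and those of Crp with none of the other members. Saa1 and Saa2 correlated at r = 0.98 over 10 pairs (Spearman's rho 0.98, permutation adjusted p = 2.0e-04 over the 10 gene pairs compared). Apcs correlated with Saa1 at r = 0.78 and rho = 0.64, and with Saa2 at r = 0.78 and rho = 0.60, each with an adjusted permutation p of 0.0411 for r, but of 0.109 and 0.122 for rho. Orm1 correlated with Apcs at 0.68, with Saa1 at 0.66 and with Saa2 at 0.62, with adjusted p of 0.0729, 0.0767 and 0.0940. Crp had r of -0.22 with Apcs, -0.28 with both Saa1 and Saa2 and -0.02 with Orm1, with adjusted p of 0.540 to 0.953. These 4 signs turned under normalization by loess over gene spots (0.10 to 0.25) and under median centring (0.61 to 0.87).

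The Saa1 to Saa2 relation remained when the 2 pairs farthest from the Saa1 median, pairs 4 and 6, were left out (r = 0.94 over 8 pairs). The relation of Apcs with Saa1 and Saa2 did not: r was then 0.32 and 0.16, so it rests on pairs 4 and 6 together. With a single pair left out, r to Saa1 and Saa2 was lowest without pair 4, at 0.56 and 0.57, and highest without pair 9, at 0.91 and 0.94 (adjusted permutation p of 0.0044 and 0.0034). Without pair 6 it was 0.74 and 0.69 (adjusted permutation p of 0.147 and 0.166). Orm1 had r of 0.65 to Apcs, 0.66 to Saa1 and 0.56 to Saa2 over the 8 pairs left without pairs 4 and 6. Its r depended on the normalization, at 0.33, 0.26 and 0.30 over 10 pairs with the ratio controls added to the spike-in fit and at 0.91, 0.72 and 0.80 with median centring. Ratios share their arrays' normalization, and over all 40186 pairs of probes the median r was 0.30 with quartiles of 0.019 and 0.56. The value for Apcs and Saa1 was exceeded by 9.16% of probe pairs, whereas that for Saa1 and Saa2 ranked 24.

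**Figure D4:**
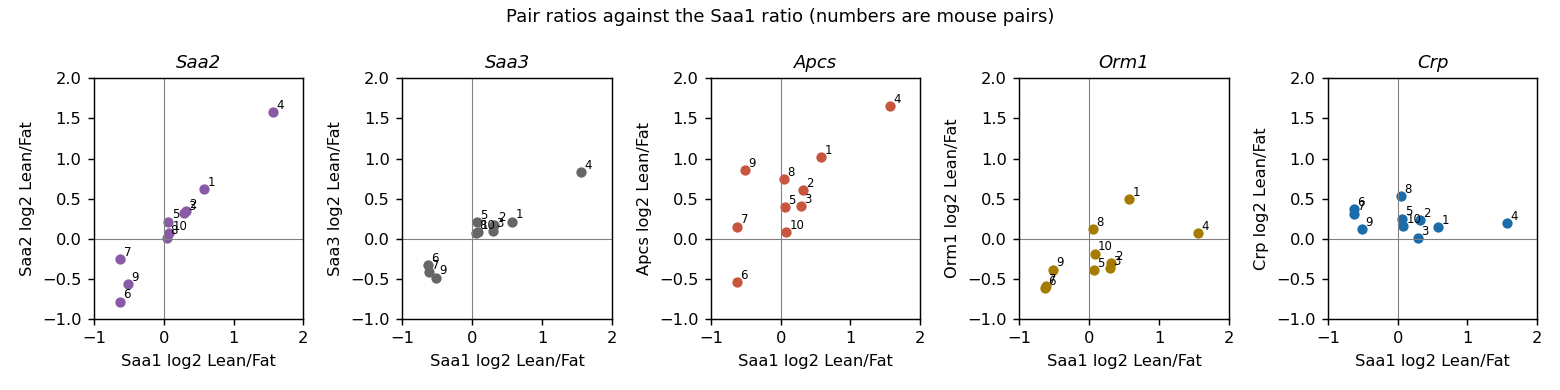
Log2 ratio of Lean over Fat of Saa2, Saa3, Apcs, Orm1 and Crp (vertical) against that of Saa1 (horizontal), 1 point per numbered mouse pair. Saa2 and Saa3 follow Saa1 across the range, Apcs and Orm1 with more scatter, and Crp stays between 0.0073 and 0.53.

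The probes nearest to each member in their pair ratios were named as a description. For Saa1 these were Saa2 (r = 0.98), Saa3 (0.96) and Apcs (0.78), and for Saa2 they were Saa1 (0.98), Saa3 (0.95) and Apcs (0.78). Saa3, which in mice is made by macrophages and fat cells as well as liver, had a mean ratio of 0.04 and an adjusted p of 0.824 (limma), with 0.83 in pair 4 and -0.49 in pair 9, the lowest. It was above background on 12 of 17 arrays in Lean and 13 of 17 in Fat. Whether the cDNA probes of Saa1, Saa2 and Saa3 tell these related transcripts apart was not tested. Saa4, the constitutively expressed member of the family, had r of 0.39 with Saa1 and 0.38 with Saa2, a mean ratio of 0.13 and an adjusted p of 0.392 (limma). For Orm1 the nearest were Hpxn (0.87), which encodes the heme-binding hemopexin, C5 (0.79), a complement component, and Fgb (0.75), the fibrinogen beta chain. Apcs was nearest to Saa2 (0.78), Saa1 (0.78) and Orm1 (0.68). For Crp they were Pon2 (0.81), a paraoxonase, and the cytochromes P450 Cyp2f2 (0.80) and Cyp2j5 (0.79), none of which is an acute phase plasma protein.

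Levels in single mice were set per array, as the log2 signal minus the array median of the gene spots, and served only to compare Lean and Fat mice for the same probe. In Saa1 the Lean mice ran from -0.74 to 3.21 with a median of 0.74, and the Fat mice from -0.11 to 2.05 with a median of 1.09. Both lowest values belong to pair 7, whose Saa1 spots disagreed, and without it the Lean mice ran from 0.39 with an SD of 1.05 and the Fat mice from 0.39 with an SD of 0.61. Saa2 ran from 0.25 to 3.13 in Lean and from 0.45 to 1.80 in Fat. Apcs ran from 0.93 to 3.60 in Lean and from 0.85 to 2.76 in Fat. The SD over mice was 1.19 in Lean and 0.70 in Fat for Saa1, 0.93 in Lean and 0.56 in Fat for Saa2, 0.90 in Lean and 0.56 in Fat for Apcs, and 0.71 in Lean and 0.75 in Fat for Crp. For Saa1, Saa2 and Apcs the Lean SD includes the Lean mouse of pair 4, the highest in each. The SD without that mouse was not calculated. The mice of a pair share an array, and their levels correlated at 0.88 for Saa1, 0.98 for Crp and a median of 0.83 over all probes, so the SD over mice holds array differences as well.

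**Figure D5:**
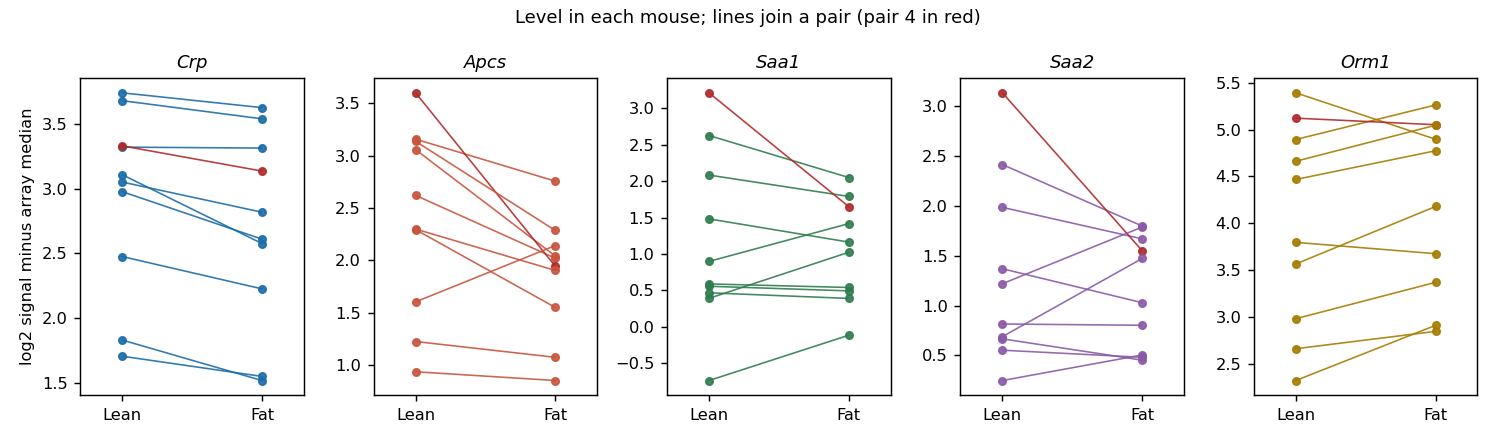
Level of each of the 5 genes in 10 Lean mice (left of each panel) and 10 Fat mice (right), as log2 signal minus the array median, with lines joining the mice of a pair and pair 4 in red. Each panel has its own vertical scale, and levels are not compared between genes.

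Of 9 other hepatic plasma proteins that rise in the acute phase, 1 passed the adjusted threshold above 0 and 1 below, where 2.82% of all probes were called higher and 0.704% lower in Lean, and their median ratio was 7.6e-04, against 0.04 over all probes. The C4 probe, for complement component 4, ranged from 0.51 to 2.12 with a median of 1.33 and a mean of 1.34 (adjusted p = 4.4e-06, limma), and the C9 probe, for a subunit of the membrane attack complex, from -1.54 to -0.71 with a median of -1.31 and a mean of -1.23 (adjusted p = 1.4e-07, limma). The lowest C4 ratio was in pair 10, which includes the array that stood apart, and the next lowest was 1.01. C4a and C4b are near-identical genes, which the C4 probe may not separate. Hpxn had a mean of 0.28 (adjusted p = 0.0625) and Fgb of 0.30 (adjusted p = 0.239, limma). None of the 4 genes that fall in the acute phase was called, with Apoa1 at 0.20 and Apoa2 at 0.17, both apolipoproteins of high density lipoprotein.

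None of 13 measured genes for signalling and transcription was called, where 3.52% of all probes were, and 1 had an unadjusted p below the threshold (limma), against 15.1% of all probes. Their median ratio was 0.03, against 0.04 over all probes, and adjusted p ran from 0.297 to 0.965 (limma). Nr3c1, the glucocorticoid receptor, had the largest ratio at 0.16 (adjusted p = 0.440, limma), and c-Jun had 0.14 (adjusted p = 0.297, limma). The highest Nr3c1 value, 0.80, was in pair 10, with 0.35 next, and pair 10 includes the array that stood apart. Many of these probes were dim. Of 17 arrays, Cebpa was above background on 17 in Lean and 17 in Fat, but Nr3c1 on 9 and 9 and c-Jun on 8 and 7. Jak2 was so on 3 and 1 and Foxa1 on 0 and 0. For such dim probes the lack of a call says little about the transcript. Of 5 cytochromes P450 that cytokines suppress, Cyp8b1, a bile acid 12-alpha-hydroxylase, passed the threshold above 0, at 0.52 (adjusted p = 0.00208, limma), with all 10 pairs above 0, where 2.82% of all probes were called higher. The other 4 did not pass, and the median of the 5 was -0.02.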

How the data were processed

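Two-colour arrays, 17 in all, compared liver RNA within 10 pairs of a Lean and a Fat mouse. The intensity values were read by the authors from images with Array-Pro Analyzer and deposited without normalization. The log2 ratios of the value table were deposited after the authors filtered spots and fitted LOWESS to spike-in controls in Orange, and they served as an alternative. Their correlation with the ratios used here was 0.43 to 0.98 across probes per array. The labels give Lean as 1 channel and Fat as the other, so no array was turned.

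Intensities were background-corrected with normexp (offset 50) and normalized by limma's control method (span 0.3) on luciferase and calibration spike-ins. Pixel means and this spike-in set were taken after 12 combinations of pixel summary and control set had been run with results in view, because they matched an earlier analysis of these data; Crp was called in 8 of the 12 (adjusted p from 0.00316 to 0.0668, limma) and Apcs in 1. Spots of a probe and then arrays of a pair were averaged. The 10 pair ratios entered a two-sided limma fit against 0 (limma version 3.58.1, run under R 4.3.3), adjusted by Benjamini-Hochberg across the 284 mouse probes at a threshold of 0.05, and were tested by exact sign-flips of 1024 patterns. Correlations used 100000 resamples. The steps were tested on simulated data, where planted ratios of bright probes came back slightly too large. Replicates are mouse pairs of unknown relatedness. The limma p-values set the mean ratio against the spread between pairs, with variances moderated across probes. The methods' t-test over pairs, which has no such moderation, gave adjusted p of 0.0369 for Crp and 0.269 for Apcs. Genes named are the 5 members, the 3 nearest probes of each, and from each list those called or the largest ratios. The members and lists were chosen with earlier results of these data known. Alternatives changed background, normalization, source, spots, dye, pairs, weights, test and filter. The 5 human probes were left out. Of 14 regulators, Nfkbie had no probe of that name, although the paper lists the gene on the array. Whether the probe named Ikapa-b measures it was not settled, and that probe was left out of the list.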

Additional observations from a re-analysis of the deposited data

Results flagged for a closer look

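Among 38 probes of the members and lists, 5 had a pair whose ratio lay far from the other 9, where chance flags about 1 in 20. Saa3 was at 0.83 in pair 4, next to 0.21 in the following pair, and pair 4 was also the highest for Saa1, Saa2 and Apcs. Hpxn was at 0.87 in pair 1 and C4bp, which encodes a complement regulator, at 0.40 in pair 1. Nfkbia was at -0.86 in pair 9. Tcf1, the transcription factor HNF1 alpha, was at 0.85 in pair 10. That pair includes the array with Lean in Cy3 that stood apart in its spike-in controls. Tcf1 was above background on 9 of 17 arrays in Lean and 6 of 17 in Fat, and its ratio without that array is not given here.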

How the results depend on the processing

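Over 30 alternatives, Crp stayed above 0 and was called in 18, and Orm1 stayed below 0, at -0.36 to -0.08, and was called in none. With median centring Saa1 was at 0.38 and Saa2 at 0.34. The Crp call ended with plain background subtraction (0.26), median centring (0.38), the authors' value table (0.22), swapped pairs only (0.22), slide series A (0.28) or B (0.18), and the median local background (0.24), the last chosen after seeing the data. Apcs was called with a dye coefficient over 17 arrays with the pair as random block (0.50) and with array weights (0.57). Saa1 and Saa2 turned below 0 in slide series A (-0.19 and -0.21). Leaving out each pair in turn gave 0.20 to 0.26 for Crp, 0.41 to 0.66 for Apcs, -0.044 to 0.20 for Saa1, -0.0041 to 0.26 for Saa2 and -0.29 to -0.17 for Orm1, and 5 to 9 probes called higher. Against 8 probes called higher, plain subtraction, median centring and swapped pairs gave 3 each, slide series A 2, series B 1, array weights 15 and the methods' t-test 5. Against 2 called lower, no background subtraction gave 7, the value table, dim spots left out, the median of spots, the dye coefficient and leaving out the pair 10 array with Lean in Cy3 gave 4 each, and series A, series B and the methods' t-test 1 each. Of 10 gene pairs, 3 correlated past the threshold, against 10 with median centring, 1 with dim spots left out, 1 with swapped pairs and 1 to 3 with a pair left out. Crp turned above 0 with loess in its r with Apcs (0.25), Saa1 (0.12), Saa2 (0.10) and Orm1 (0.22), and with median centring (0.79, 0.61, 0.69 and 0.87). Its r with Orm1 also turned with a span of 0.75 (0.23), the value table (0.15), the median of spots (0.012), swapped pairs (0.094) and the median foreground (0.042), and ran from -0.41 to 0.20 with a pair left out. The cause of these changes was not tested. Every fit here is paired, since each ratio sets the Lean and the Fat mouse of 1 pair against each other.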
